A study of Homo sapiens with 6 samples.

Results

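Cassette exons are exons that a transcript may keep or skip, and those whose length is a multiple of 3 can be kept or skipped without shifting the reading frame downstream. In SKNBE2 neuroblastoma cells, 2547 such exons of 61 to 250 nt were followed, in 1969 genes, out of 7815 exons of any length that met the same coverage and level limits and of 721551 splicing events in all. They were chosen by length, by at least 10 reads and a coverage score of LOW or better in each of the 6 libraries, and by a mean inclusion of 5 to 95% in the Control libraries. Control levels therefore helped to choose them and are given as a description. The DFMO libraries were 3 samples of SKNBE2 cells, a human line with amplified MYCN, held for 4 days at 250 µM difluoromethylornithine (DFMO), and the Control libraries were 3 samples of the same MYCN-amplified line without that treatment. All 6 were stranded mRNA libraries of 1 cell line. Nothing in the labels says that replicates were separate cultures, so p values measure the spread between these libraries, which may be technical.

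The spliceosome finds most internal exons of vertebrates by exon definition, in which the splice sites at both ends of an exon are recognised together, and base composition, flanking introns and bound regulators set how often a weak exon is kept. An exon that keeps frame and holds no stop codon adds or removes a stretch of protein, and such exons are common in neuronal genes, where they change binding sites, membrane insertion and turnover of the encoded proteins. DFMO inhibits ornithine decarboxylase, the enzyme that makes putrescine, and so lowers the supply of polyamines, small cations that bind RNA. The comparison addressed how exon use responds to the drug in this line. No polyamine was measured in these files.

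The exons that moved furthest show the material that the results below turn on. The 5 largest rises and the 5 largest falls among called, wholly coding exons, with 1 exon per gene and ARHGEF10 not shown, are printed 5′ to 3′ from GENCODE 29 transcripts on GRCh38, with runs of 5 or more bases that are all G or C in capitals. Rises come first.
SMPD4, chr2:130161186-130161272, minus strand: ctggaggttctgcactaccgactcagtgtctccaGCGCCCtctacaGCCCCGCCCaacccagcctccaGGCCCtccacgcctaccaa
CAMK2G, chr10:73839539-73839601, minus strand: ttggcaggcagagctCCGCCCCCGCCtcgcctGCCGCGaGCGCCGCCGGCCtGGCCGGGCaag
FNIP2, chr4:158833801-158833890, plus strand: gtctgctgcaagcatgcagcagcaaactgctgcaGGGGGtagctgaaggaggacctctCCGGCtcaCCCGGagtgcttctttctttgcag
ACIN1, chr14:23089982-23090101, minus strand: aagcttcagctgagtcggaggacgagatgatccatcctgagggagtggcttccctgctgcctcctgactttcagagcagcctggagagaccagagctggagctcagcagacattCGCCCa
CDH24, chr14:23051970-23052083, minus strand: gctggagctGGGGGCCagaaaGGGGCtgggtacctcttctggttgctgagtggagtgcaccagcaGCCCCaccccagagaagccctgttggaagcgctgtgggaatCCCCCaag
Falls follow.
SDCCAG3, chr9:136410090-136410239, minus strand: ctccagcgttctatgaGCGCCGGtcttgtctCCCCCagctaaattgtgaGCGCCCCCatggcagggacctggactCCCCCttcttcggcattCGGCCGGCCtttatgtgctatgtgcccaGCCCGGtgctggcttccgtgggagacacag
CADM2, chr3:85979164-85979283, plus strand: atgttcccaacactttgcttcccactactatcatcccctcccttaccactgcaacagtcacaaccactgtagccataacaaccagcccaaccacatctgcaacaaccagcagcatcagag
CASK, chrX:41557032-41557100, minus strand: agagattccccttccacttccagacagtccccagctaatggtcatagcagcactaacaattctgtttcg
PICALM, chr11:85990250-85990378, minus strand: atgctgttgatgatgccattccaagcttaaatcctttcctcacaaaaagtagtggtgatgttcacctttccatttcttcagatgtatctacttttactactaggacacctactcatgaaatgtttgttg
CUL5, chr11:108049890-108050066, plus strand: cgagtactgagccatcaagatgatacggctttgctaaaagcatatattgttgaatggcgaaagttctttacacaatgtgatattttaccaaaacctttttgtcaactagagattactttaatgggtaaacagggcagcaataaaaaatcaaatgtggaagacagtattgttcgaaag
GC content was 58.3% (ACIN1) to 81.0% (CAMK2G) in the 5 printed rises, each of which held at least 1 such run. The ARHGEF10 exon, which rose more than those of ACIN1 and CDH24 and is not printed, had a lower GC content of 47.9%. Among the 5 falls it was 35.0% (CUL5) to 62.7% (SDCCAG3), and the SDCCAG3 exon alone held runs, 6 of them.

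Reads assigned to splicing events came to 100005273, 82918379 and 86167448 in the DFMO libraries and to 84964542, 77648922 and 103250467 in the Control libraries, and a read can count for more than 1 event. A frame-keeping exon had a median of 127 reads per library. The noradrenergic and neuroblastoma markers PHOX2A, HAND2, GATA3, ISL1, TH, DBH, DDC, CHGA, CHGB and MYCN had exon reads in every library. The marker genes of other cell types were low, with at most 1 read for PTPRC, ALB, PECAM1 and KRT5, 4 to 12 for COL1A1 and 15 to 28 for CD68. In bulk RNA, a change within each cell and a change in the make-up of the culture cannot be told apart.

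Most of the called changes in these exons were rises in inclusion with DFMO. Of the 2547 exons, 2213 also had a mean of 5 to 95% over all 6 libraries and were tested, and 75 were called higher and 18 lower, or 3.39% and 0.813%, with a median size of 17.2 points. A call needed a limma adjusted p below 0.05 over all 7500 tested exons and a difference of at least 10 percentage points. Over all 7500 exons, 2.71% were called higher and 0.747% lower, 3.45% in all, against 4.2% of the frame-keeping ones. Exons of 61 to 250 nt that shift frame had 79 called higher and 19 lower of 3052 tested, or 3.21%, so the share and direction were close in both, and no test of that difference was made. Called rises spanned 10.1 to 38.7 points, with 19 of 20 points or more, and called falls 10.1 to 34.6 points, with 4 of 20 or more. The percents of the DFMO and Control libraries did not overlap in any of the 93 called exons. Without DFMO replicate 1, 46 were called higher, and without Control replicate 3, 10 were called lower. With no trend of the variance on counting error, limma called 4 higher and 1 lower. In that fit 364 frame-keeping exons had an unadjusted limma p below 0.05, against 473 when the trend was kept.

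**Figure D1:**
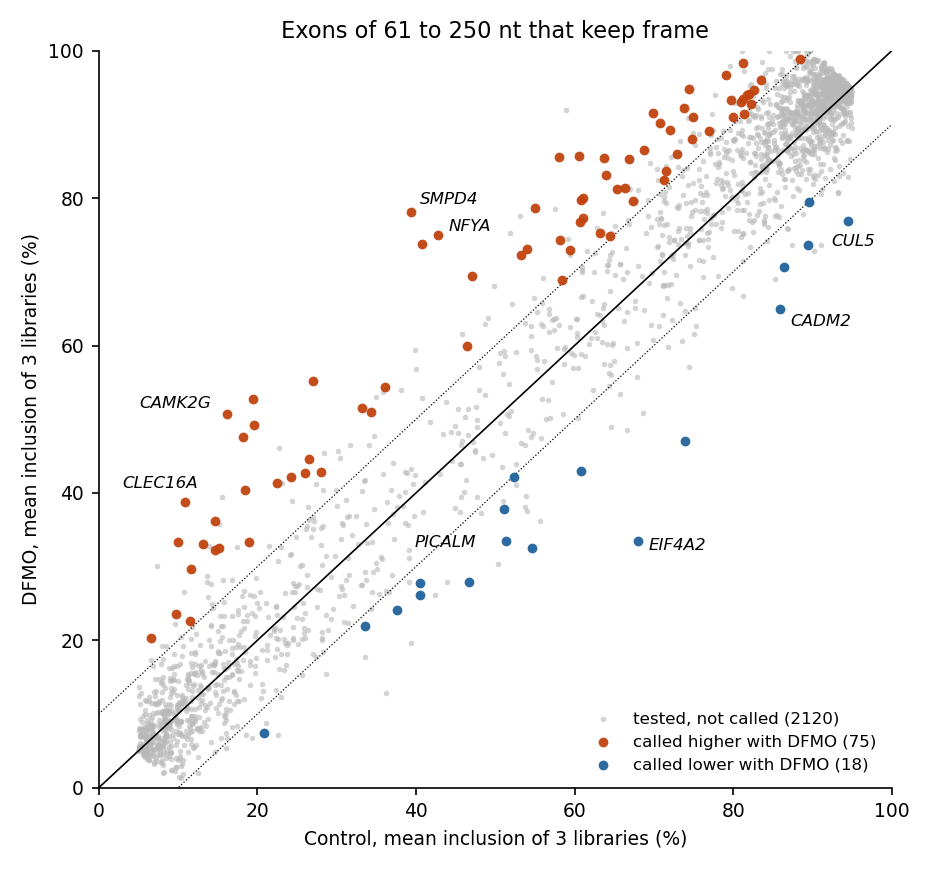
Mean inclusion of each of the 2213 tested frame-keeping exons over the 3 DFMO libraries (vertical axis, %) against the mean over the 3 Control libraries (horizontal axis, %). The solid line marks equal levels and the dotted lines a difference of 10 points. The 75 exons called higher lie above the upper dotted line, with SMPD4 at 78.1% against 39.4%, and the 18 called lower lie below the lower one, with EIF4A2 at 33.4% against 68.1%.

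Exons that were not called leaned slightly the same way. The median difference over these 2120 exons was 1.34 points, and 62.1% of them had a higher mean with DFMO. The lean was not general, since the tested exons with a Control mean over 20 to 50% had a median of -0.18 points. The median difference was 1.46 points over the 2213 tested exons, and 62.9% of them had a higher mean with DFMO, against a median of 1.24 points over all 7500 tested exons and 1.15 over the frame-shifting ones. Mean inclusion over all 2547 exons was 63.65, 63.64 and 63.67% in the DFMO libraries and 61.75, 61.64 and 61.79% in the Control libraries. Because the limits of 5 and 95% were set on the Control libraries, part of such a shift can come from the choice of exons. With the limits set on the DFMO libraries instead, 2331 exons passed and the median difference was 0.81 points with 56.7% higher, and with limits set on all 6 libraries it was 1.38 points over 2394 exons. Among the 2213 tested exons, 422 had every DFMO library above every Control library and 166 every one below, together 26.6%, against 26.2% of all 7500 tested exons (17.9% above and 8.33% below).

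Junction reads show what the percents were made of. A junction read crosses from the exon to its upstream or downstream neighbour, or skips it. Each inclusion junction can be set against the skipping junction alone, although both ends then share the skipping reads, and all of these reads entered the percent. Of the 93 called exons, 19 had less than 10 points at 1 end or both. The 150-nt SDCCAG3 exon, printed above, was the 1 below 10 points at both ends. Its deposited percents do not follow from its junction reads, as given further on. The CDH24 exon had 214, 155 and 156 upstream inclusion reads in the DFMO libraries and 55, 62 and 93 in the Control libraries, its downstream inclusion reads were 221, 225 and 185 against 53, 29 and 63, and its skipping reads 219, 202 and 212 against 262, 235 and 291. For the EIF4A2 exon, skipping reads were 884, 712 and 688 in the DFMO libraries against 232, 185 and 268 in the Control libraries. Its upstream inclusion reads were 636, 538 and 529 against 650, 582 and 800, and its downstream ones 414, 397 and 226 against 446, 462 and 552. In these counts the groups differed more in inclusion reads at CDH24 and more in skipping reads at EIF4A2. The counts are not scaled to library depth or to the expression of the gene, so they do not divide the change between inclusion and skipping.

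Among the largest rises was the 87-nt SMPD4 exon printed above, 29 codons of a sphingomyelinase, with 73.8, 84.1 and 76.5% in the DFMO libraries and 42.5, 37.2 and 38.5% in the Control libraries (log2 odds 2.48, SE 0.26, adjusted p = 9.74e-05). SMPD4 has pseudogene copies, and the sources used here do not say how reads shared with them were counted. The 63-nt exon of CAMK2G, the gamma chain of calcium/calmodulin-dependent kinase II, had 41.3, 54.6 and 56.1% with DFMO and 9.73, 19.3 and 19.4% in Control (log2 odds 2.41, SE 0.46, adjusted p = 7.99e-03), from 52 to 97 reads per library. In CDH24, a cadherin, the exon had 49.8, 48.5 and 44.6% with DFMO and 17.1, 16.2 and 21.1% in Control (log2 odds 2.04, SE 0.19, adjusted p = 3.04e-05). All 3 exons were wholly coding, and in each the lowest DFMO library stood over 20 points above the highest Control library.

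FNIP2 encodes a partner of folliculin in nutrient signaling, and its 90-nt exon had 60.98, 35.3 and 61.8% in the DFMO libraries and 21.8, 19.5 and 17.1% in the Control libraries (adjusted p = 0.0103). DFMO replicate 2 lay well below the other DFMO libraries there, and the call ended without DFMO replicate 1 (29.1 points). The 117-nt exon of ARHGEF10, an exchange factor for small GTPases, had 70.9, 71.8 and 78.8% with DFMO against 34.4, 37.6 and 50.4% in Control (adjusted p = 9.99e-03). In HR, a corepressor of nuclear receptors, a 165-nt exon had 92.8, 92.4 and 89.6% with DFMO against 71.9, 68.6 and 69.1% in Control (log2 odds 2.24, SE 0.23, adjusted p = 8.25e-05). The HR libraries were tightly grouped, and neither ARHGEF10 nor HR lost its call when any 1 library was left out.

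Some of the large rises were in exons that GENCODE 29 does not list with the same start and end. Such exons are called unannotated here, although an exon with another boundary may be listed at the same place. An 81-nt exon of NFYA, the subunit of NF-Y that with its partners binds CCAAT boxes, had 79.3, 69.7 and 76.03% in the DFMO libraries and 39.4, 45.6 and 43.3% in the Control libraries (chr6:41080814-41080894, adjusted p = 1.46e-03). A 120-nt exon of CLEC16A, a membrane protein of endosomes linked to mitophagy, had 30.3, 43.4 and 42.5% against 11.2, 12.3 and 9.23% (chr16:11174158-11174277, adjusted p = 4.88e-03). In DPP9, a dipeptidyl peptidase, a 132-nt exon had 29.4, 31.4 and 28.2% against 12.1, 11.3 and 11.6% (adjusted p = 7.24e-03). Each of these calls held when any 1 library was left out. The 87-nt exon of FAM21EP, a pseudogene related to the FAM21 subunits of the WASH complex, had 85.6% ± 4.70 with DFMO and 58.1% ± 5.84 in Control (SD, n = 3 each, limma adjusted p = 6.09e-03), and its reads may be shared with those near copies.

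**Figure D2:**
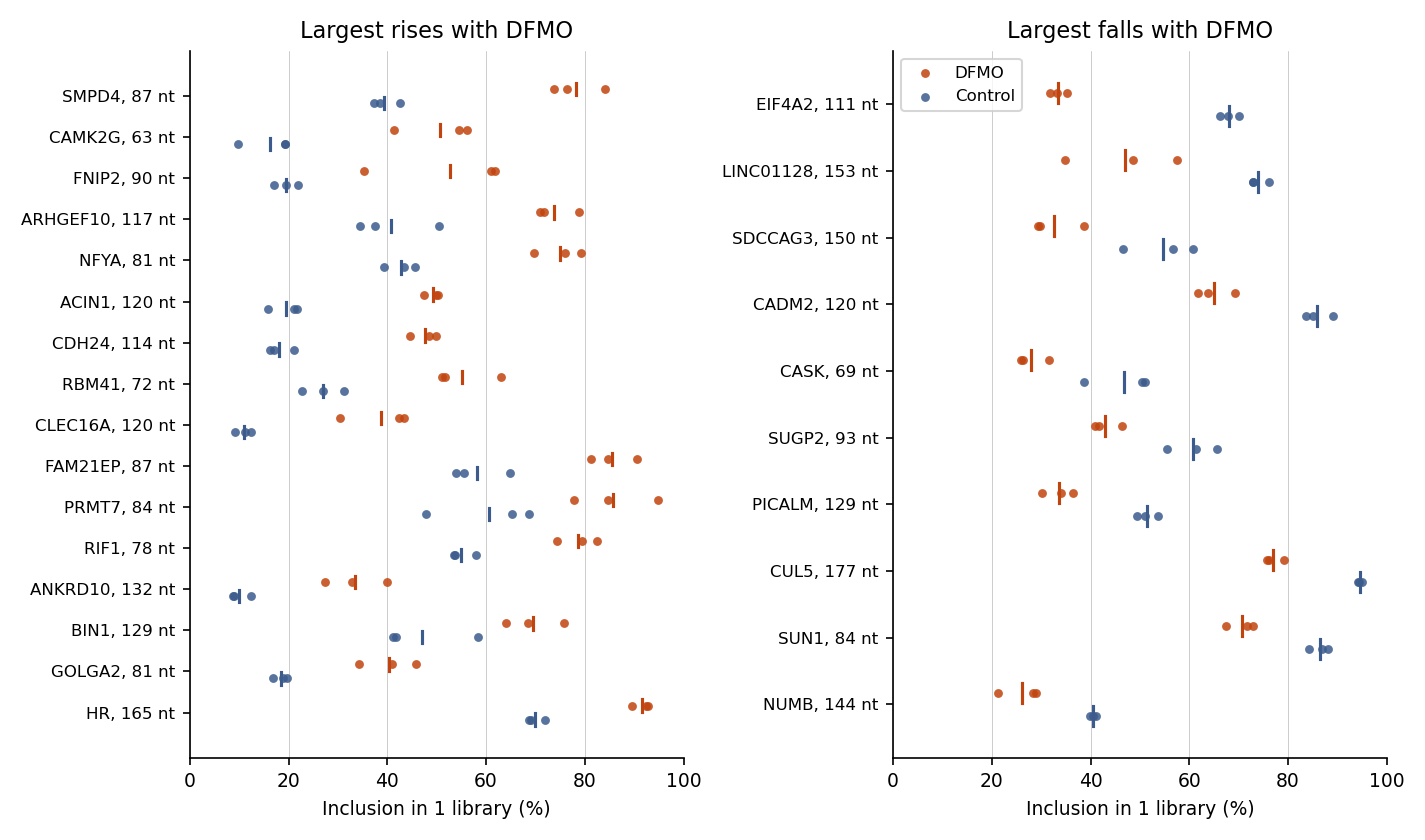
Inclusion (%) in each library for the 16 largest rises and the 10 largest falls, 1 exon per gene, with the 3 DFMO libraries in the upper row and the 3 Control libraries in the lower row of each exon and a bar at the mean. The 26 exons shown were chosen among called exons in which the libraries of the groups do not overlap.

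Membrane traffic genes had the highest share of called exons among the 11 lists. Of 57 tested exons in this list, 9 were called higher and 2 lower, or 19.3%, with a median difference of 2.27 points, against 3.45% and 1.24 points over all tested exons. The lists were put together with earlier results of these data known. GOLGA2, a tether of the cis-Golgi, had an 81-nt exon at 34.2, 45.8 and 40.96% in the DFMO libraries and 18.9, 16.9 and 19.8% in the Control libraries (adjusted p = 0.0111), a call that ended without DFMO replicate 2 (19.1 points). SEC31A, a coat protein of the vesicles that leave the endoplasmic reticulum, had a 78-nt exon at 69.7, 72.3 and 77.4% against 50.5, 56.2 and 55.2% (adjusted p = 2.84e-03). For SEC16A, which organises the exit sites where those vesicles form, a 75-nt exon had 93.4% ± 4.21 with DFMO and 79.8% ± 1.88 in Control, and for GOLGA4, a golgin of the trans-Golgi, a 63-nt exon had 96.7% ± 2.61 and 79.1% ± 7.23 (SD, n = 3 each). Both calls ended without some libraries (SEC16A without DFMO replicate 1 or any Control library, 11.5 to 14.4 points; GOLGA4 without Control replicate 1 or 3 or DFMO replicate 1, 14.3 to 16.97 points).

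The pair of rising BIN1 exons encode parts of a protein that bends membranes. The 129-nt exon had 68.5, 64.04 and 75.9% in the DFMO libraries and 58.4, 41.1 and 41.7% in the Control libraries, and the unannotated 72-nt exon had 73.6, 86.4 and 79.4% against 63.96, 57.5 and 60.9%. Control replicate 1 was the highest Control library at both. The 129-nt call ended without DFMO replicate 1 or 3 or Control replicate 2 or 3 (19.2 to 22.9 points) and the 72-nt call when any library other than DFMO replicate 1 was left out (15.7 to 20.6 points). AGAP3, which regulates Arf GTPases, had a 171-nt exon at 59.95% ± 2.93 with DFMO and 46.4% ± 0.83 in Control, a call that ended without DFMO replicate 1 or Control replicate 2 (11.9 and 13.1 points). DNM1L encodes the dynamin that divides mitochondria, and its 78-nt exon had 52.6, 43.2 and 57.2% against 37.3, 36.2 and 29.7% (adjusted p = 0.0136), called except without DFMO replicate 1 or 3 or Control replicate 3 (13.6 to 15.8 points). MFF, the receptor that brings DNM1L to mitochondria, had a 159-nt exon at 68.9% ± 2.39 with DFMO and 58.5% ± 4.66 in Control (adjusted p = 0.046), the least secure of these, since it lost the call when any library other than Control replicate 1 was left out (8.36 to 11.5 points) and on the percent scale.

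The 2 exons of the membrane traffic list that fell belong to endocytic adaptors. PICALM assembles clathrin coats, and its 129-nt exon had 36.5, 30.1 and 34.1% in the DFMO libraries and 51.03, 53.6 and 49.4% in the Control libraries (log2 odds -1.06, SE 0.16, adjusted p = 1.46e-03). NUMB is an endocytic adaptor that restrains Notch, and its 144-nt exon had 28.9, 21.3 and 28.3% against 39.9, 40.5 and 41.1% (log2 odds -0.95, SE 0.19, adjusted p = 9.97e-03). The 3 Control libraries of NUMB lay close together. Both calls held when any 1 library was left out.

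In the synapse list, 5 of 40 tested exons were called higher and 2 lower, or 17.5%, against 3.45% over all tested exons. The list's median difference was 1.07 points, below the 1.24 over all tested exons. DDC makes dopamine from its precursor, and its 114-nt exon had 80.4, 80.4 and 79.1% in the DFMO libraries and 60.3, 64.3 and 58.5% in the Control libraries, on 1659 to 2158 reads per library (log2 odds 1.35, SE 0.10, adjusted p = 5.15e-06). SLC6A2, the noradrenaline transporter, had a 135-nt exon at 75.98, 74.9 and 74.7% against 64.8, 62.5 and 62.3%, on 1345 to 2125 reads (log2 odds 0.82, SE 0.09, adjusted p = 1.08e-04). SNAP25, a SNARE protein of vesicle release, had a 126-nt exon at 86.6, 82.6 and 82.0% against 71.7, 71.9 and 70.9% (adjusted p = 4.69e-03). These deep exons gave narrow errors, and none of the 3 calls depended on any 1 library. The 63-nt exon of GRIN1, the obligatory subunit of NMDA receptors, had 31.1, 31.4 and 46.2% with DFMO and 11.7, 14.6 and 17.7% in Control on 51 to 106 reads, and that call ended without any 1 of the 6 libraries (16.6 to 24.2 points). PPFIA1, a liprin scaffold, had a 63-nt exon at 32.2% ± 3.19 with DFMO and 14.7% ± 3.89 in Control (adjusted p = 0.0216), and lost the call when any library other than Control replicate 2 was left out (15.7 to 19.3 points).

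Both synaptic falls were in scaffolds of the MAGUK family. CASK links adhesion molecules to the cytoskeleton, and its 69-nt exon had 26.3, 31.6 and 25.8% in the DFMO libraries and 38.6, 50.5 and 51.07% in the Control libraries (adjusted p = 0.0304). DLG1 had a 99-nt exon at 27.6, 29.3 and 26.5% against 36.8, 45.6 and 39.2% (adjusted p = 0.0306). The CASK call ended without DFMO replicate 1 or 3 or Control replicate 2 or 3 (16.6 to 17.98 points) and the DLG1 call when any library other than Control replicate 1 was left out (10.2 to 13.5 points). CADM2, a synaptic adhesion molecule that was in none of the lists, had a 120-nt exon at 61.7, 63.8 and 69.2% with DFMO against 89.1, 83.6 and 85.1% in Control (adjusted p = 0.0104), called except without DFMO replicate 1 (19.4 points).

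Cytoskeletal and adhesion genes had 2 of 50 tested exons called, both higher, or 4.0%, close to the 3.45% over all tested exons, with a median of 2.37 points. A 93-nt exon of ANK2, an ankyrin that anchors membrane proteins, had 47.5, 40.5 and 40.3% in the DFMO libraries and 27.3, 24.9 and 25.7% in the Control libraries (adjusted p = 9.27e-03), and lost the call without DFMO replicate 1 (14.5 points). A 111-nt exon of CTTN, which binds branched actin, had 93.3, 94.7 and 94.1% against 82.5, 80.8 and 81.8% (log2 odds 1.81, SE 0.22, adjusted p = 3.30e-04).

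Splicing and RNA processing genes had 4 of 39 tested exons called, all higher, or 10.3% against 3.45% over all tested exons, with a median of 1.51 points. The ACIN1 exon printed above, in a scaffold that joins RNA at exon junctions, had 50.3, 47.4 and 49.8% in the DFMO libraries and 15.9, 21.1 and 21.8% in the Control libraries (log2 odds 1.99, SE 0.26, adjusted p = 5.41e-04). RBM41, an RNA-binding protein, had a 72-nt exon at 51.6, 63.03 and 51.02% against 27.01, 31.3 and 22.7% on 42 to 73 reads (adjusted p = 0.0267), and the call ended without DFMO replicate 1 or 2 or Control replicate 1 or 3 (24.3 to 30.03 points). Exons of SRSF11, an SR-related protein, and PRPF3, a protein of the tri-snRNP, rose from low levels and held stop codons, as given further on. The translation list had 1 of 25 exons called, the EIF4A2 exon, which fell, and a median of 0.57 points.

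Chromatin and transcription genes had 4 of 89 tested exons called, all higher, or 4.49%, close to the 3.45% over all tested exons, and a median of 1.77 points. CUX1, a homeodomain transcription factor outside this list, had a called fall in a 102-nt exon, at 24.1% with DFMO and 37.6% in Control (adjusted p = 0.048), which ended without any 1 library (12.2 to 14.8 points). Beside NFYA, a 153-nt exon of ASXL1, a cofactor of the deubiquitinase that acts on histone H2A, had 87.6, 82.4 and 79.3% in the DFMO libraries and 65.9, 60.2 and 65.8% in the Control libraries (adjusted p = 0.0111). A 189-nt exon of BPTF, the large subunit of the NURF remodeler, had 81.3% ± 2.04 with DFMO and 66.3% ± 6.29 in Control, and a 129-nt exon of ARID1B, a subunit of the BAF remodeler, had 33.3% ± 1.75 and 18.9% ± 2.10 (SD, n = 3 each). ASXL1 held its call without any 1 library, whereas BPTF lost it without DFMO replicate 1 or 2 or Control replicate 1 (11.6 to 14.6 points) and ARID1B when any library other than Control replicate 3 was left out (13.4 to 14.99 points).

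Of 50 tested exons in kinase, phosphatase and signaling genes, 4 were called higher and 1 lower, the NUMB exon, or 10% against 3.45% over all tested exons, with a median of 1.82 points. CAMKK2, a kinase upstream of AMPK and of other calmodulin-dependent kinases, had a 129-nt exon at 86.2, 81.2 and 76.2% in the DFMO libraries and 70.9, 60.2 and 65.2% in the Control libraries (adjusted p = 0.0302), called except without DFMO replicate 1 or 2 or Control replicate 2 or 3 (13.2 to 15.8 points). CDK5RAP2, a centrosome protein, had a 237-nt exon at 86.6, 83.9 and 85.4% against 64.6, 64.0 and 72.0% (adjusted p = 6.12e-03). In the cell cycle and DNA repair list 1 of 76 exons was called, an unannotated 75-nt exon of POLL, a polymerase of DNA repair, at 92.2% ± 4.73 with DFMO and 73.9% ± 1.61 in Control, and it lost the call when any library other than DFMO replicate 3 was left out (16.02 to 19.2 points). The mitochondrial list had the 2 called exons of DNM1L and MFF among 51, with a median of 1.27 points. None of 42 exons in the ubiquitin list was called by limma, with a median of 0.26 points, although CUL5, a cullin scaffold of ubiquitin ligases outside that list, had a called fall.

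**Figure D3:**
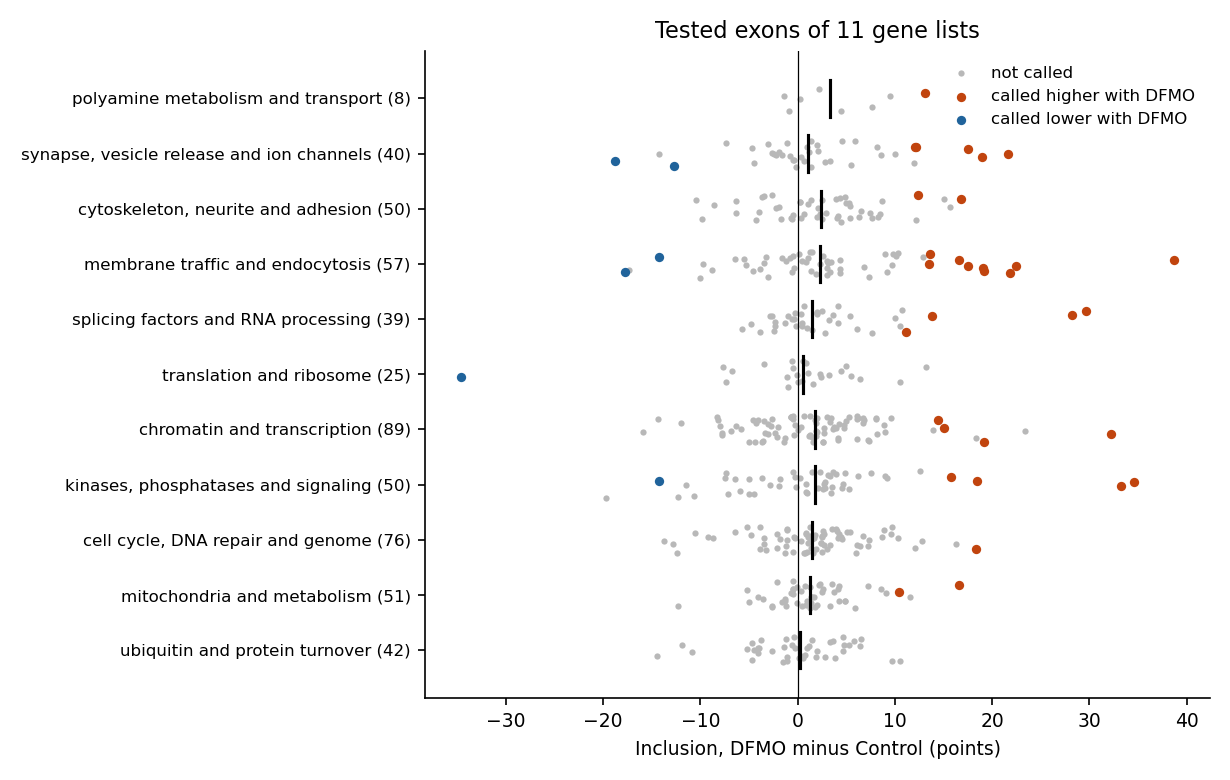
Difference in inclusion, DFMO minus Control (points), for each tested frame-keeping exon of 11 gene lists, with the number tested in brackets, called exons in colour and a black bar at the list's median. Most medians lie between 0 and 3 points, the membrane traffic list has 9 exons called higher and 2 lower, and the ubiquitin list has none called.

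Polyamine genes held 9 of the frame-keeping exons, of which 8 were tested and 1 was called. ATP13A3 encodes a P-type ATPase that carries polyamines across membranes, and its 90-nt exon rose, with 88.6, 83.7 and 85.7% in the DFMO libraries and 79.2, 72.5 and 67.01% in the Control libraries (adjusted p = 0.0132). That call ended without DFMO replicate 1 or Control replicate 3 (11.8 and 10.2 points). An 81-nt exon of the same gene had 97.9, 96.5 and 93.5% with DFMO against 87.7, 86.9 and 84.9% in Control, and passed the adjusted p (0.0111) but differed by 9.47 points, short of the 10 required. It was called without DFMO replicate 3 or Control replicate 1 (10.1 to 10.7 points).

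An unannotated 93-nt exon of ENOPH1, an enzyme of methionine salvage, likewise passed the adjusted p (4.29e-03) with 91.2% ± 0.24 with DFMO and 83.6% ± 2.81 in Control, a difference of 7.64 points. The 102-nt exon of SAT2, a relative of the polyamine acetyltransferase SAT1, had 79.7% ± 1.70 with DFMO and 75.2% ± 5.14 in Control (adjusted p = 0.489). SLC3A2, a heavy chain of amino acid transporters linked to polyamine transport, had 3 exons of 93 nt at 26.6, 77.4 and 92.4% with DFMO and 24.4, 77.2 and 93.3% in Control, all with an adjusted p of 0.748 or above. An unannotated 78-nt exon of SLC18B1, a vesicular polyamine transporter, had 16.04% ± 3.71 and 17.5% ± 4.71. The median difference over the 8 exons was 3.35 points.

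Falls were fewer, and the largest in percentage points, though not in log2 odds, was in EIF4A2, a helicase of translation initiation. Its 111-nt exon, annotated in a transcript without coding sequence, had 33.2, 35.3 and 31.8% in the DFMO libraries and 66.3, 70.1 and 67.8% in the Control libraries on 1229 to 1934 reads (log2 odds -2.08, SE 0.10, adjusted p = 3.26e-08). The 177-nt coding exon of CUL5 had 75.7, 79.1 and 76.1% in the DFMO libraries and 95.02, 94.3 and 94.1% in the Control libraries (log2 odds -2.32, SE 0.33, adjusted p = 1.03e-03). The CUL5 call was 1 of the 2 that also held without the variance trend, the other being the rise of a 159-nt exon of SNAP23, a SNARE protein, which had 98.7, 98.8 and 99.2% with DFMO against 86.9, 89.6 and 88.9% in Control. The SNAP23 call ended without Control replicate 1 (9.61 points). A 93-nt exon of SUGP2, an RNA-binding protein, had 42.95% ± 2.90 with DFMO and 60.8% ± 5.14 in Control, and a 108-nt exon of BAG6, a chaperone of membrane proteins, had 37.9% ± 1.55 and 51.07% ± 4.62 (SD, n = 3 each). SUGP2 lost its call without Control replicate 3 (15.4 points). The 153-nt exon of the noncoding RNA LINC01128 had 48.5, 34.9 and 57.5% with DFMO and 76.1, 72.9 and 72.8% in Control on 44 to 76 reads, and its call ended when any library other than DFMO replicate 3 was left out (20.9 to 27.7 points).

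Genes with several frame-keeping exons gave further comparisons, chosen after their values were seen. SUN1, which spans the inner nuclear membrane and ties the nucleus to the cytoskeleton, had 2 exons that fell. The 198-nt exon had 74.7, 70.8 and 75.6% in the DFMO libraries and 90.8, 87.2 and 90.2% in the Control libraries (adjusted p = 7.43e-04), and the 84-nt exon had 72.9, 67.4 and 71.7% against 88.03, 84.3 and 86.9% (adjusted p = 9.49e-04). They moved by 15.7 and 15.8 points. The 2 exons are neighbours, with an intron of 904 nt between them. Skipping reads in the DFMO libraries were 74, 74 and 66 for the 198-nt exon and 86, 84 and 80 for the 84-nt exon. In the Control libraries they were 21, 31 and 28 for the 198-nt exon and 28, 38 and 42 for the 84-nt exon. Whether the 2 exons are skipped together was not tested, so the falls may not be separate changes. SDCCAG3, an endosomal protein, had exons that moved in opposite directions. Its 69-nt exon had 72.6, 71.2 and 75.3% with DFMO against 59.98, 57.99 and 60.4% in Control, and its 150-nt exon had 38.6, 29.3 and 29.8% against 60.7, 46.5 and 56.7%. With each inclusion junction of the 150-nt exon set against the skipping junction alone, the differences were -7.98 points upstream and -7.8 downstream. Both fell short of the 10 points, against -22.06 in the deposited percent. Skipping reads of this exon were only 8, 10 and 11 in the DFMO libraries and 5, 8 and 8 in the Control libraries. Upstream and downstream inclusion reads were 38 and 77 in DFMO replicate 1 and 38 and 138 in Control replicate 1. Such reads alone would give higher percents than those deposited, and the cause of the gap was not tested. The 69-nt exon differed by 0.44 points upstream and 18.3 downstream. The SDCCAG3 rise was lost when any library other than DFMO replicate 2 was left out (12.4 to 14.03 points) and the fall without DFMO replicate 2 or 3 or Control replicate 1 or 3 (19.04 to 21.02 points). HAND2-AS1, a noncoding RNA beside HAND2, likewise had a 123-nt exon at 92.7% ± 0.20 with DFMO and 82.2% ± 1.55 in Control and a 102-nt exon at 21.9% ± 1.43 and 33.6% ± 0.67 (SD, n = 3 each). The 102-nt HAND2-AS1 exon differed by -14.5 points at its upstream junction and -0.77 at its downstream one. That downstream junction had only 6, 1 and 1 inclusion reads in the DFMO libraries and 3, 5 and 0 in the Control libraries. Upstream inclusion reads were 296, 278 and 253 against 214, 213 and 292. The percents of this exon thus rest almost wholly on its upstream junction, and the downstream difference is near the floor.

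Most other exons of the same genes were not called, and called ones moved the same way more often than the opposite way. The 93 called exons lay in 88 genes, of which 66 had another tested exon of any length. Of those 141 other exons, 10 were called higher and 1 lower, with a median difference of 1.89 points. Over all 7500 tested exons, 2.71% were called higher and 0.747% lower, with a median of 1.24 points. Beside the falling 129-nt exon of PICALM, a 24-nt exon rose, with 37.7% ± 4.02 with DFMO and 24.02% ± 1.84 in Control (SD, n = 3 each, limma adjusted p = 0.0479). Beside the falling 69-nt exon of CASK, a 36-nt exon rose, with 95.8% ± 2.28 and 78.5% ± 4.27 (adjusted p = 0.0107). SEC31A had 2 more rising exons, both of 39 nt, at 52.4% ± 3.52 with DFMO and 32.9% ± 4.62 in Control and at 15.99% ± 2.77 and 5.91% ± 1.69. Called exons of AFMID, AGAP3, CAMKK2, MGRN1, SNAP25 and STOML1 likewise rose beside rising ones. In ADAM22, a receptor of synaptic adhesion, an 87-nt exon rose (54.3% ± 4.28 with DFMO, 36.1% ± 2.60 in Control), and a 51-nt exon fell (13.03% ± 1.28 and 26.1% ± 2.54). These neighbours were chosen after their values were seen, and their calls were not followed through the alternatives.

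Most calls were in wholly coding exons, and so were most of the tested exons. By GENCODE 29, 1640 of the 2547 exons (64.4%) were wholly coding, against 51.4% of the frame-shifting exons of the same length. Of 1406 tested wholly coding exons, 60 were called higher and 12 lower, or 5.12%, with a median difference of 2.02 points. The share called was 4.2% over all 2213 tested frame-keeping exons and 3.45% over all 7500 tested exons. The 110 tested exons in the untranslated part of coding transcripts had none called (13 at an unadjusted p below 0.05 in limma) and a median of -0.48 points. In transcripts marked for nonsense-mediated decay, the surveillance that removes messages with early stops, 92 exons had 2 called higher and 1 lower, or 3.26%. In transcripts without a coding sequence, 119 exons had 3 and 4, or 5.88%. Unannotated exons had 9 and 1 of 411, or 2.43%.

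These groups also differed in level, with a median Control inclusion of 85.8% for coding exons and 19.3% for untranslated ones. Within the Control range over 20 to 80%, wholly coding exons had 41 called higher and 8 lower of 398 and a median of 3.31 points, against 8 and 5 of 209 and a median of -0.91 for the others. Read on from the upstream coding exon, 222 of 1824 exons with a readable frame (12.2%) held a stop codon, against 19.1% of the frame-shifting ones. Of the 202 tested with a stop, 6 were called higher and 1 lower, with a median of 0.04 points, and of the 1379 tested without one, 58 and 11, with a median of 1.99.

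The stop-bearing exons that moved were few, and 4 of them are shown around their first stop codon in that frame, which is in capitals, since these exons would end the protein although their length keeps frame.
EIF4A2: gagtcgaTAGcagcagttggtg
ANKRD10: gagcattccataTAGaaactgctgaaa
SRSF11: gcttttgaaagtTGAgagcacacccct
PRPF3: cacgagccctccTAGtgaagaggggat
The stop begins at base 8 of the 111-nt EIF4A2 exon, base 29 of the 132-nt ANKRD10 exon, base 48 of the 117-nt SRSF11 exon and base 61 of the 96-nt PRPF3 exon. The EIF4A2 exon fell, and the other 3 rose. ANKRD10, a protein with ankyrin repeats, had 32.9, 27.4 and 39.96% in the DFMO libraries and 8.64, 12.4 and 8.86% in the Control libraries (adjusted p = 1.65e-03). For SRSF11 the values were 21.7, 23.8 and 15.6% against 5.56, 8.89 and 5.30% (adjusted p = 0.0105), a call that ended without DFMO replicate 1 (13.1 points). For PRPF3 they were 20.8, 26.7 and 20.4% against 10.3, 11.3 and 13.04% (adjusted p = 0.0224), a call that ended without DFMO replicate 1 or 2 or Control replicate 1 or 2 (9.06 to 12.02 points). Levels of such exons also depend on how fast the messages that hold them decay, which was not measured. The other stop-bearing rises were in GOLGA4, whose exon holds an annotated start or stop, and in SNAP25 and AFMID, whose exons are wholly coding in other annotated transcripts.

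Calls were unevenly spread over the Control levels. Of the 2547 exons, 629 had a Control mean of 5 to 20%, 607 one over 20 and under 80%, and 1311 one of 80 to 95%. Exons at 5 to 20% had 16 called higher and 0 lower of 573 tested (77 at an unadjusted p below 0.05 in limma). A fall of 10 points is possible there only from a Control level above 10%. The band over 50 to 80% had 35 higher and 7 lower of 361, or 11.6%, and the band over 20 to 50% had 14 and 6 of 246, or 8.13%. At 80 to 95%, where a rise of 10 points is out of reach for many exons, 10 were called higher and 5 lower of 1033, although 70.3% of them had a higher mean with DFMO. Length made little difference to the share called, at 4.33% for 63 to 99 nt, 4.16% for 102 to 150 nt and 4.05% for 153 to 249 nt.

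Base composition went with the direction and the size of the shift. Sequence was at hand for the 2073 annotated exons, and the GC quartiles of the tested ones lay at 42.1, 49.4 and 56.8%. From the lowest to the highest band of GC, the median difference was 0.65, 1.05, 1.86 and 3.96 points, the share of exons with a higher mean under DFMO was 55.4, 58.4, 66.2 and 79.4%, and 4, 11, 17 and 34 exons were called higher. Exons called lower numbered 5, 3, 7 and 2. In the highest band, mean inclusion was 68.3, 68.2 and 68.03% in the DFMO libraries and 64.02, 62.9 and 63.6% in the Control libraries, without overlap. In the lowest band it was 67.6, 67.8 and 68.1% against 67.5, 67.4 and 68.0%, and the groups overlapped.

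**Figure D4:**
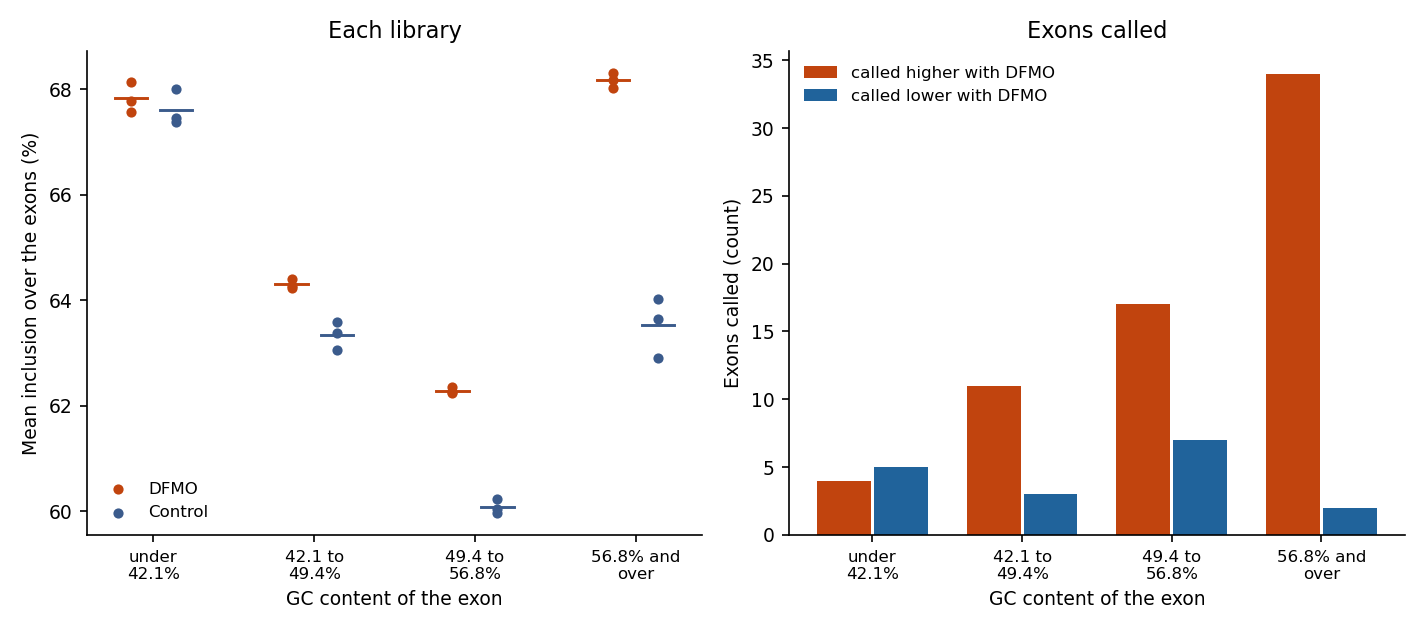
Left, mean inclusion (%) over the tested frame-keeping exons of each GC band, 1 point per library, with the 3 DFMO libraries left of the 3 Control libraries and a line at each mean (the axis does not start at 0). Right, the number of exons called higher and lower in each band. The groups lie 4 to 5 points apart in the highest band and overlap in the lowest, and called rises climb from 4 in the lowest band to 34 in the highest.

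The same order was seen within subsets. Among wholly coding exons the medians were 0.98, 1.36, 2.13 and 4.14 points from the lowest band to the highest, and among exons at 20 to 80% in Control they were -0.34, -0.21, 2.20 and 6.21. With the limits of 5 and 95% set on the DFMO libraries the medians were -0.67, 0.00, 1.12 and 2.77, so the lowest band changed sign with the choice of limits and the highest did not. Frame-shifting exons of the same length, which the rule leaves out, had 0.36, 0.80, 2.0 and 3.11 in the same GC bands, with 35 called higher and 0 lower of 542 in the highest. The order was therefore not particular to exons that keep frame.

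The libraries themselves differed slightly in base composition. The GC content of 56315 exons that were always or nearly always included, weighted by their reads, was 50.4% in each DFMO library and 50.2% in each Control library, and exons of 60% GC or more took 17.4, 17.5 and 17.4% of those reads in the DFMO libraries and 16.9, 17 and 16.9% in the Control libraries. The part of this shift in the differences by GC was not tested.

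Other features that the rule did not use are given as descriptions. Median GC was 57.6% in the 66 exons called higher that had a sequence, 49.5% in the 17 called lower and 49.0% in 1719 tested exons that were not called. A run of 5 or more bases that are all G or C, as marked in the exons printed above, was in 71.2% of those called higher, 58.8% of those called lower and 56.3% of those not called. The motif GGGG on the RNA strand was within the first 60 nt of 17 of the 66 (25.8%), of 1 of the 17 and of 15.6% of those not called, against 15.2% of all tested exons of 61 nt or more. GAAGAA, a purine-rich enhancer motif, was found there in 0 of the 66 and in 0 of the 17, so it did not separate rises from falls. It was in 5.12% of those not called and in 5.31% of all tested exons of 61 nt or more. The motifs named here were among 6 searched for. The others were likewise in 0 of the 66 and 0 of the 17, and each was in 0.349 to 1.92% of those not called. A match is only the presence of the letters of a motif. GGGG is itself more frequent where GC is high, and a motif rich in A or T less so.

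Called rises ended in AG, the usual last bases of an exon, in 65.2%, falls in 35.3% and exons not called in 59.5%. The median upstream intron was 1650 nt for rises, 3190 nt for falls and 2400 nt for exons not called. Grouped by the shorter of the flanking introns, with quartiles at 446, 1293 and 3281 nt, exons called higher numbered 17, 30, 19 and 9 and exons called lower 4, 3, 3 and 8 from the shortest to the longest band. With 17 or 18 falls, such shares shift by several points with each exon.

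The remaining called rises lay mostly outside the lists, which 57 of the 93 called exons did. They included a 219-nt exon of PCK2, the mitochondrial PEP carboxykinase, with 88.6, 91.5 and 87.6% in the DFMO libraries and 71.6, 70.1 and 74.3% in the Control libraries (adjusted p = 6.19e-04), and a 165-nt exon of OS9, a lectin of protein quality control, with 44.7, 43.8 and 45.2% against 26.8, 23.8 and 28.97% (adjusted p = 7.21e-04). INO80E, a subunit of the INO80 remodeler, had a 66-nt exon at 93.4, 92.5 and 93.04% against 82.7, 82.02 and 78.4% (adjusted p = 8.64e-05), and NT5E, the ectonucleotidase CD73, had a 150-nt exon at 96.5, 96.6 and 94.99% against 83.2, 81.6 and 85.7% (adjusted p = 8.85e-04). These 4 were chosen after their values were seen, and each call held without any 1 library. A 78-nt exon of RIF1, which acts in replication timing and break repair, had 74.4, 82.4 and 79.3% against 57.9, 53.7 and 53.5% (adjusted p = 2.97e-03). PRMT7, an arginine methyltransferase, had an 84-nt exon at 94.8, 77.8 and 84.6% against 47.8, 65.3 and 68.8%, a wide spread, and its call ended without DFMO replicate 1 or any Control library (18.7 to 29.2 points).

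The 3 exons with the smallest SE among those not called show how small a difference could be resolved at high depth. They had 2413 to 6645 reads per library, against a median of 127 for frame-keeping exons, so a typical exon was resolved less finely. The 93-nt exon of PCBP2, an RNA-binding protein, had 65.6% ± 0.68 with DFMO and 63.7% ± 0.83 in Control on 4123 to 6645 reads (log2 odds 0.12, SE 0.05, adjusted p = 0.17). The 168-nt exon of APP, which encodes the Kunitz inhibitor domain of the amyloid precursor, had 93.05% ± 0.38 and 90.1% ± 0.59 (adjusted p = 1.90e-03), and the 102-nt exon of C1orf43 had 76.3% ± 0.44 and 71.3% ± 1.69 (adjusted p = 0.0104). APP and C1orf43 passed the adjusted p and missed the 10 points. With no size threshold 125 frame-keeping exons were higher and 27 lower, or 6.87%, against 5.72% of all 7500 tested exons.

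The other 334 of the 2547 exons met the Control limits but had a mean over the 6 libraries above 95% (278) or below 5% (56), and were not tested. All 278 had a higher and all 56 a lower mean with DFMO, as the 2 limits force. When exons were filtered on the Control mean instead, 3.15% of 7815 exons were called, none of the 334 was among them, and 15 higher and 2 lower passed the adjusted p alone. At the edges of the rule, a SLC39A9 exon with a Control mean of 5.003% was inside and a CD200 exon at 4.997% outside, with 2.41 and 3.41% under DFMO. At the upper limit a CEP250 exon at 95% was inside and a CPT1C exon at 95.003% outside, with 97.4 and 96.6% under DFMO. By length, a 63-nt exon of ACADVL was inside and a 60-nt exon of ABCC1 outside, and a 249-nt exon of ATP9B was inside and a 252-nt exon of PHF21A outside.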

How the data were processed

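Splicing was measured in 6 stranded mRNA libraries of SKNBE2 cells. The deposited table gives, per library, a percent for each event and a quality text with a coverage score, junction reads and the reads assigned to inclusion and exclusion, on GRCh38 per the submitters' processing notes. The sources used here name no aligner and no quantifier. Inclusion reads follow from the percent, so they are no independent check of it. The members and gene lists were chosen with earlier results of these data known.

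Exons scored LOW or better with 10 or more reads in every library, and a mean of 5 to 95% over the 6 libraries, were tested (7500 exons). Inclusion and exclusion reads, each with 0.5 added, gave log2 odds, to which limma 3.58.1 was applied in R 4.3.3 (robust empirical Bayes, with the variance trended on the counting variance of each exon's reads). P values were two-sided with Benjamini-Hochberg adjustment over all 7500 exons, and a call needed an adjusted p below 0.05 and at least 10 points. Errors after ± are SDs over the 3 libraries of a group, and SEs are of the log2 odds. The script was tested on simulated data. Libraries of 1 group differed by 2.4 to 2.49 times what counting alone gives (as variances).

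Annotation and exon sequences came from GENCODE 29 on GRCh38, read with Python 3 and pandas; introns were not used beyond their length. A stop was counted when every coding frame at the upstream donor gave one. Named exons were the 16 largest rises and 10 largest falls among called exons whose groups did not overlap (1 per gene), up to 3 called per list, every tested exon of a polyamine gene, the exons nearest each limit and the 3 uncalled exons with the smallest SE. Every other called exon in the report was named after its values were seen. Alternatives changed the trend, offset, scale, test, filters, size threshold and each library in turn. Some genes and their exons are not reported here.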

Additional observations from a re-analysis of the deposited data

How the results depend on the processing

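With no variance trend, 12 exons of any kind were called higher and 2 lower, and 4 and 1 frame-keeping ones, 2 of them among the 93 called with the trend; the median prior degrees of freedom were then 2.25 against 10.1. A threshold of 15 points left 118 and 27 exons, and 48 and 10 frame-keeping ones, by its construction, and no size threshold gave 335 and 94, and 125 and 27. A counting variance taken at the pooled percent, chosen after seeing the data, called 36 exons lower. Without 1 library, 130 to 181 exons were called higher and 30 to 41 lower, and 46 to 68 and 10 to 14 frame-keeping ones. These fits also had fewer samples. Of the 93 called exons, 43 (35 higher, 8 lower) kept their call whichever library was left out. The percent scale, the quasi-binomial test, the offset of 0.1, the read, score and balance filters and both filters on the mean percent kept the 4 counts within 1.5 times. The median difference over frame-keeping exons was 1.87 points when exons of any mean percent were tested and when the filter used the Control mean, 1.82 with balanced inclusion junctions, 0.81 with the limits set on the DFMO libraries (added after seeing the data), and 1.51 to 1.6 without 1 library, all positive. The cause of these differences was not tested except where stated.

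Replicate numbers did not pair the samples: deviations of same-numbered DFMO and Control libraries correlated at -0.02, -0.002 and -0.007. With the replicate block, 202 exons were called higher and 52 lower, and 77 and 16 frame-keeping ones. No called exon could reverse, since every setting took its difference from the same percents and those of the groups did not overlap. GRIN1, RBM41 and LINC01128, with 42 to 106 reads per library, lost their calls without at least 4 of the 6 single libraries, whereas CAMK2G, ARHGEF10 and CLEC16A, with 49 to 104, kept theirs without any 1, and DLG1, with 250 to 341, lost its call without 5 of the 6, so read number was not enough to tell which calls held.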
